A study of Mus musculus with 8 samples.

Results

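The genes described here are 10 genes of the hormone-secreting machinery of the gut, namely the granins *Chga*, *Chgb* and *Scg5*, the prohormone convertase *Pcsk1* and its inhibitor *Pcsk1n*, the exocytosis gene *Cplx2*, the serotonin enzyme *Tph1*, the tachykinin precursor *Tac1* and the peptide hormones *Sct* and *Cck*. They were taken by name, with earlier results of these data known, from 53801 genes counted in 8 RNA sequencing libraries. A table of 25485 genes that the authors had scaled by size factors lists 8 of the 10, and *Pcsk1n* and *Cck* were found in the count table by their Ensembl identifiers. 6 of the 10 had enough counts to be tested between genotypes, and *Scg5*, *Pcsk1n*, *Tph1* and *Cck* did not.

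The study asked how loss of Mll1, a histone H3K4 methyltransferase encoded by *Kmt2a*, changes intestinal stem cells in which β-catenin is active. Lgr5-GFP+ cells were sorted from intestinal crypts of 4 mice labelled β-cateninGOF; Mll1+/- and 4 mice labelled β-cateninGOF; Mll1-/-, and each library is 1 mouse. All 8 mice carried Lgr5-EGFP-IRES-CreERT2, in which the Lgr5 locus drives both the green reporter and the inducible recombinase, together with β-cateninGOF, a stabilised β-catenin allele, and at least 1 floxed Mll1 allele. The mice were 4 to 6 weeks old when they received 50 mg/kg tamoxifen on each of 3 days, and cells were taken on day 10 after induction. Libraries with intact Mll1 or without β-cateninGOF were not analysed here, the sex of the mice is not labelled, and a gate on the reporter does not separate recombined from non-recombined cells.

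Enteroendocrine cells are the hormone-secreting cells of the intestinal epithelium and arise from Lgr5+ stem cells through progenitors that express Neurog3. Their hormones are made as precursors, packed with granins into dense-core granules, cut by prohormone convertases and released by calcium-triggered exocytosis. Different subtypes make different products, such as serotonin and substance P in enterochromaffin cells, secretin in S cells and cholecystokinin in I cells. A library of sorted Lgr5-GFP+ cells is a bulk sample, so that fewer enteroendocrine cells and less RNA of these genes per cell cannot be told apart.

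The libraries held 14468751 to 16847793 gene counts. Values are given as counts or as CPM, the counts scaled to library size with TMM, and 3 counts, the upper limit that a count of 0 allows, correspond to 0.162 to 0.241 CPM. These limits cover counting error only, since the reads carry no molecular identifiers. The targeted gene *Kmt2a* was not lower in the libraries labelled Mll1-/-, at 63.5 ± 10.7 CPM against 53.8 ± 7.45 CPM (SD, n = 4 each, log2 fold change 0.24, edgeR adjusted p = 0.71), so that gene-level counts do not check these labels. J_7135, labelled Mll1-/-, stood apart, with a highest Spearman correlation of 0.909 with any other library, where each of the other 7 reached at least 0.947. J_7100, labelled Mll1+/-, held 36 counts on spike-in sequences, against 0 to 2 in the others. Listed stem cell genes were detected in every library, with *Olfm4* at 12160 ± 2796 CPM and 20741 ± 1705 CPM (SD, n = 4 each), respectively.

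Among the 10 genes, *Chga* and *Chgb* had fewer reads in each library labelled Mll1-/- than in any Mll1+/- library, *Cplx2* rose about 3.16-fold in mean CPM, and the other 7 genes overlapped between genotypes. Of the 6 tested genes, 1 passed an adjusted p of 0.1 over all 16445 genes tested (edgeR), namely *Cplx2*, in a comparison that called 0.0851% of genes. An unadjusted p under 0.05 was reached by 3 of the 6, *Chga*, *Chgb* and *Cplx2*, against 9.15% of all genes. Every library labelled Mll1-/- lay below every Mll1+/- library in *Chga* and *Chgb*, an order found in 2.94% of all genes, and above in *Cplx2*, an order found in 3.34%. The median log2 fold change of the 6 genes was -1.78, beside 0.01 over all genes, with 5 lower and 1 higher. These counts and the median are descriptions only and support nothing on the genes as a group, because *Chga* and *Chgb* entered the test through the Mll1+/- libraries: of the libraries labelled Mll1-/-, 10 or more counts were reached by 0 for *Chga* and by 1 for *Chgb*.

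**Figure D1:**
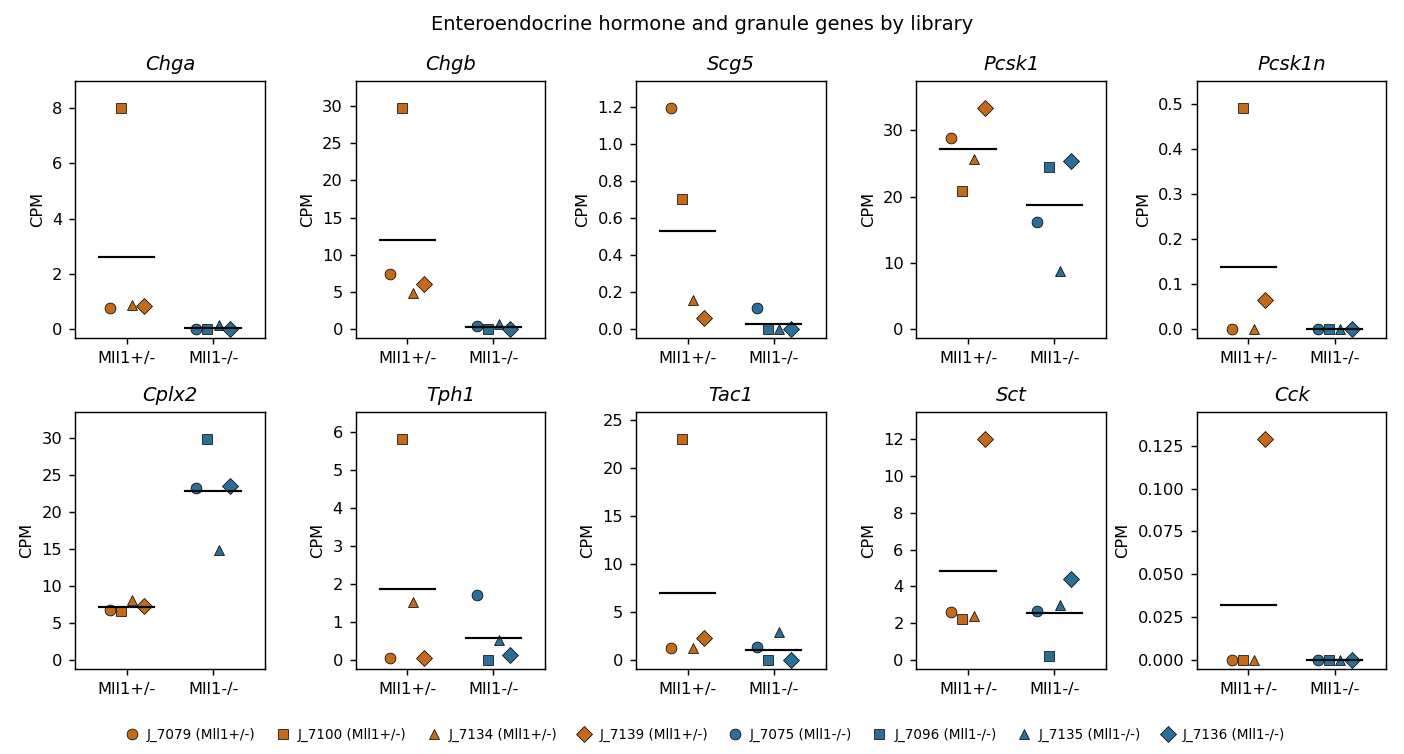
CPM of each of the 10 genes (vertical axis, one scale per gene, starting just below 0) in the 4 Mll1+/- libraries (orange) and the 4 libraries labelled Mll1-/- (blue), with symbols for single mice and a black line at the mean. *Chga* and *Chgb* do not overlap between genotypes, *Cplx2* does not overlap in the opposite order, and J_7100 (orange square) holds the highest *Chga*, *Chgb*, *Tac1*, *Tph1* and *Pcsk1n*.

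*Chga* encodes chromogranin A, the classical granule marker of neuroendocrine cells. It had 13, 114, 11 and 13 counts in the Mll1+/- libraries J_7079, J_7100, J_7134 and J_7139, and 0, 0, 3 and 0 counts in J_7075, J_7096, J_7135 and J_7136, which are labelled Mll1-/-. All 4 Mll1+/- libraries were above the others, and J_7100 alone held most of the reads, at 8.02 CPM where the other 3 held 0.778 to 0.882 CPM. The pooled counts, 151 against 3, gave a ratio of 58.1 with a 95% counting interval of 19.5 to 285, and 18.8 with an interval of 5.94 to 95.1 without J_7100. A counting interval takes reads as the unit and leaves out the spread between mice. The fitted log2 fold change was -5.70 ± 1.36 (SE, n = 4 each, adjusted p = 0.245, edgeR), whose size rests on a group with 3 counts in all.

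*Chgb*, which encodes chromogranin B, another granin of the same granules, was the better covered of the pair. It had 125, 423, 61 and 95 counts in the Mll1+/- libraries, in the same order, and 9, 2, 14 and 1 counts in the libraries labelled Mll1-/-. These are 12.1 ± 11.8 CPM against 0.367 ± 0.333 CPM (SD, n = 4 each). The highest library labelled Mll1-/- was J_7135 at 0.757 CPM and the lowest Mll1+/- library was J_7134 at 4.89 CPM, so that the genotypes did not overlap. Pooled, the ratio was 31.2 with a counting interval of 21.1 to 48.1, 16.4 with an interval of 10.98 to 25.6 without J_7100, and 49.2 with an interval of 28.0 to 95.8 without J_7135. The log2 fold change was -4.98 ± 0.88 (SE, n = 4 each) and missed the threshold at an adjusted p of 0.139 (edgeR). It passed at 0.0602 with a newer quasi-likelihood method of the same package and at 2.0e-07 with DESeq2, which called 0.243% and 2.74% of all genes, and at 0.0943 without J_7135. With limma-voom, which called 0.626% of all genes, the adjusted p was 0.356.

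Within J_7075, J_7096, J_7079 and J_7100, whose libraries were numbered as one run, the difference in mean log2(CPM + 0.5) was -2.72 for *Chga* and -4.28 for *Chgb*, and within the other 4 it was -1.24 and -2.83. Both genes were thus lower in the libraries labelled Mll1-/- within each run. *Scg5* encodes the 7B2 protein, a chaperone of the convertase PC2 in the granule. It had 20, 10, 2 and 1 counts in the Mll1+/- libraries and 2, 0, 0 and 0 in the others. J_7079 and J_7100 were above every library labelled Mll1-/-, whereas J_7139 lay below J_7075, so the genotypes overlapped. The difference in mean CPM was -0.502, with an exact two-sided permutation p of 0.0571, where 0.0286 is the smallest that 4 against 4 libraries allow. This was 1 of 4 such tests, unadjusted, made for the genes with too few counts for the fit.

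*Pcsk1* encodes PC1/3, the convertase that cuts most gut prohormones. It had 28.9, 20.8, 25.7 and 33.4 CPM in J_7079, J_7100, J_7134 and J_7139, and 16.2, 24.4, 8.87 and 25.4 CPM in J_7075, J_7096, J_7135 and J_7136. The lowest value was that of J_7135, and J_7096 and J_7136 lay within the range of the Mll1+/- libraries. The log2 fold change was -0.54 ± 0.33 (SE, n = 4 each, adjusted p = 0.656, edgeR), which did not pass the threshold, and the genotypes overlapped. J_7100, which held the most *Chga*, *Chgb* and *Tac1*, held the least *Pcsk1* of its genotype. *Pcsk1n* encodes proSAAS, an inhibitor of this convertase. It had 7 counts in J_7100 and 1 in J_7139, and 0 counts in the other 6 libraries, with an exact two-sided permutation p of 0.429. Of the exon bases of *Pcsk1n*, 6.2% overlap *Eras*, and the counting did not use strand.

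The stretches below show what 4 of the 10 genes share upstream of the RefSeq start, the 6 letters TGACGT, which are the core of the cAMP response element TGACGTCA. Both strands of the 250 bases before the start were searched, and TGACGTCA reads the same on both strands and holds TGACGT on each. The letters are in capitals, each line reads 5′ to 3′ on the strand of the gene with 11 bases on either side, and the sequences are RefSeq's for GRCm38.p6.
*Chga*: gggcggtcctaTGACGTaatttcctggg
*Chgb*: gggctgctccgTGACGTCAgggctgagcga
*Scg5*: aaggaggtaaaTGACGTtcataggggtc
*Pcsk1*: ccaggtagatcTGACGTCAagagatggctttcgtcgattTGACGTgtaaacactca
The stretch of *Chga* is chr12:102554886-102554913 on the plus strand, with TGACGT at -44 from the start and outside the annotated exons. The stretch of *Chgb* is chr2:132781559-132781588 on the plus strand, with TGACGTCA at -72, and lies within the first exon of the annotation used for counting. The stretch of *Scg5* is chr2:113829250-113829277 on the minus strand, with TGACGT at -175, and that of *Pcsk1* is chr13:75089768-75089823 on the plus strand, with TGACGTCA at -78 and TGACGT at -50. TGACGT was present in 4 of the 10 genes and in 7.29% of 27025 genes with a RefSeq promoter, and TGACGTCA in 2 of the 10 and in 1.77% of all. Of the 4 genes, *Chga* and *Chgb* did not overlap between genotypes, while *Scg5* and *Pcsk1* did, and these letters are a description of the sequence only.

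*Cplx2* encodes complexin 2, which binds the SNARE complex and controls the fusion of granules and vesicles. It had 23.2, 29.9, 14.8 and 23.5 CPM in J_7075, J_7096, J_7135 and J_7136, and 6.82, 6.68, 8.18 and 7.30 CPM in J_7079, J_7100, J_7134 and J_7139. The 4 Mll1+/- libraries were close together, and even the lowest library labelled Mll1-/-, J_7135, was above all of them. The means were 22.9 ± 6.18 CPM and 7.24 ± 0.678 CPM (SD, n = 4 each), a log2 fold change of 1.66 ± 0.25 (SE) with an adjusted p of 0.0973 (edgeR). This was the 222nd highest fold change and the 12th smallest p of all genes. Within the runs of libraries the difference in mean log2(CPM + 0.5) was 1.89 and 1.221.

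The call for *Cplx2* stood just inside the threshold and was lost in 10 of the 17 other fits, although its log2 fold change stayed between 1.50 and 1.82 in all of them. With the run of libraries as a term the adjusted p was 0.136 (edgeR). It was 0.219 (edgeR) with a term that stood in for the unlabelled sex of the mice. This term was the log2 level of *Xist* minus that of the summed Y-linked genes *Ddx3y*, *Kdm5d*, *Eif2s3y* and *Uty*. Leaving out J_7135 gave 0.014, and leaving out any other library gave 0.191 to 0.33. *Cplx2* ran opposite to the granins, with which it correlated at a Pearson r of -0.79 for *Chga* and -0.94 for *Chgb* across the 8 libraries, in log2(CPM + 0.5). The values across the 8 libraries take in the opposite differences of these genes between genotypes. Among the 4 Mll1+/- libraries alone r was -0.54 and -0.72, over few points. The RefSeq start of *Cplx2* lies 68793 bases from that of the counted gene, and the 250 bases searched before it held no TGACGT.

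**Figure D2:**
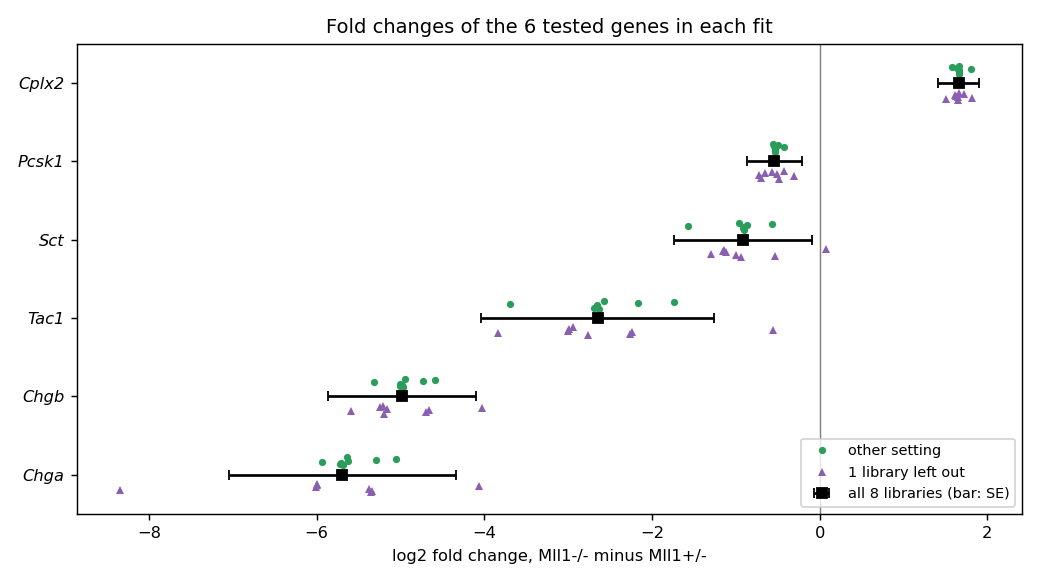
Log2 fold change, libraries labelled Mll1-/- minus Mll1+/- libraries (horizontal axis), of the 6 tested genes (rows) in the fit of all 8 libraries (black square, bar ± SE), under other settings (green circles) and with 1 library left out (purple triangles). *Chga* and *Chgb* stay at or below -4.03 and *Cplx2* at or above 1.50 in every fit, whereas *Tac1* moves to -0.56 and *Sct* to 0.072 when 1 library is left out.

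*Tac1* encodes the precursor of substance P and neurokinin A. It had 21, 328, 16 and 36 counts in J_7079, J_7100, J_7134 and J_7139, and 23, 1, 55 and 0 counts in J_7075, J_7096, J_7135 and J_7136. A single library, J_7100, accounted for most of the reads at 23.1 CPM, and the remaining 7 libraries ran from 0 to 2.97 CPM with J_7135 at the top. The log2 fold change was -2.65 ± 1.39 (SE, n = 4 each, adjusted p = 0.615, edgeR), and -0.56 without J_7100, so that this difference rests on that library.

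*Tph1* encodes tryptophan hydroxylase 1, the rate-limiting enzyme of serotonin synthesis outside the nervous system. It had 1, 83, 19 and 1 counts in the Mll1+/- libraries and 29, 0, 10 and 2 counts in the others, ordered as for *Tac1*. J_7100 was again the highest, J_7075 came next, and 2 Mll1+/- libraries held a single count. The difference in mean CPM was -1.28 (exact two-sided permutation p = 0.657), and it turned to 0.0464 without J_7100. The pooled ratio of counts, Mll1+/- over those labelled Mll1-/-, was 2.93 with a counting interval of 2.02 to 4.31 over all libraries. It was 0.779 with an interval of 0.437 to 1.35 without J_7100, and 7.502 with an interval of 4.12 to 15.0 without J_7075. Such intervals leave out the spread between mice, so they do not test the genotypes.

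*Sct* encodes secretin, which stimulates bicarbonate secretion by the pancreas. It had 2.63, 2.25, 2.41 and 12.01 CPM in J_7079, J_7100, J_7134 and J_7139, and 2.66, 0.232, 2.97 and 4.40 CPM in J_7075, J_7096, J_7135 and J_7136. Apart from J_7139 on the high side and J_7096 on the low side, libraries of both genotypes lay between 2.25 and 4.40 CPM. The log2 fold change was -0.91 ± 0.82 (SE, n = 4 each, adjusted p = 0.784, edgeR), and 0.072 without J_7139. *Cck* encodes cholecystokinin, the hormone of I cells. It had 2 counts in J_7139 and 0 counts in the other 7 libraries, which allows up to 0.241 CPM, and a difference was not detectable at this depth.

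Summed over the 10 genes, the libraries labelled Mll1-/- held 45.8, 54.7, 31.1 and 53.5 CPM and the Mll1+/- libraries 49.1, 97.6, 45.1 and 62.4 CPM, so that the sums overlapped. The makeup differed: *Pcsk1* and *Cplx2* together made up 76.2% to 99.3% of the sum in the libraries labelled Mll1-/- and 28.2% to 75.3% in the Mll1+/- libraries. The other 8 genes summed to 6.37, 0.405, 7.41 and 4.60 CPM and to 13.4, 70.1, 11.1 and 21.6 CPM, respectively. The gene that led these 8 also differed between mice. *Chgb* led in J_7079, J_7100 and J_7134, *Sct* in J_7139, J_7075, J_7096 and J_7136, while *Tac1* and *Sct* were level in J_7135, at 55 counts each.

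**Figure D3:**
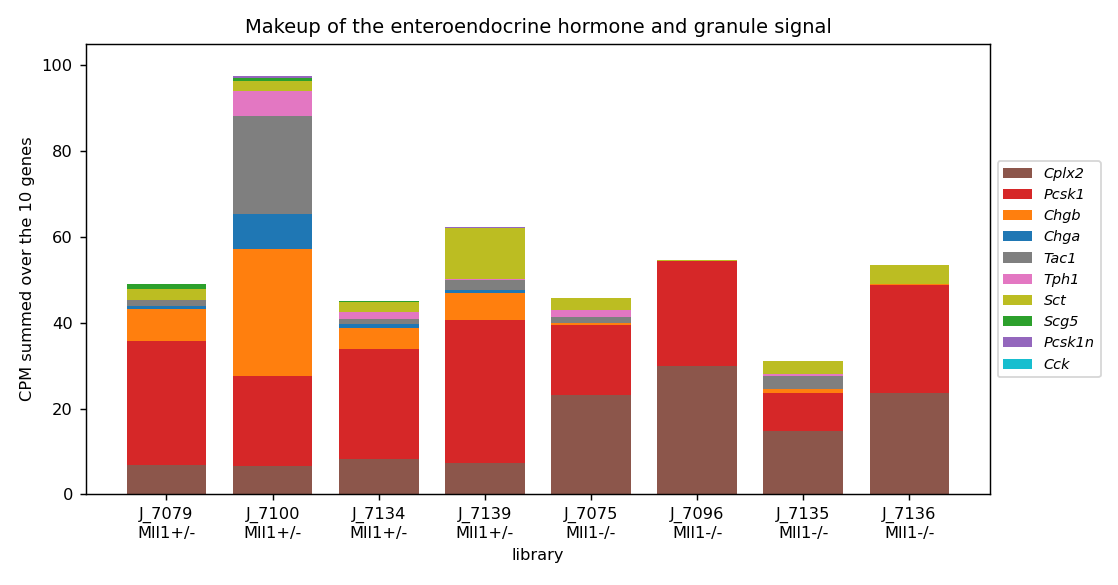
CPM summed over the 10 genes (vertical axis, from 0) in each library (horizontal axis, Mll1+/- on the left, labelled Mll1-/- on the right), stacked by gene in the colours given. *Cplx2* (brown) is thicker in the 4 libraries labelled Mll1-/-, *Chgb* (orange) is visible mainly in the Mll1+/- libraries, and J_7100 holds the highest sum, 97.6 CPM.

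Per kilobase of exon, a scale that allows genes to be compared, the mean level over the Mll1+/- libraries was highest for *Sct*, at 7.48 ± 7.43 CPM per kilobase, followed by *Pcsk1* at 4.86 ± 0.949, *Chgb* at 4.40 ± 4.32, *Tac1* at 2.05 ± 3.16, *Cplx2* at 1.47 ± 0.138 and *Chga* at 0.954 ± 1.30 (SD, n = 4). The ranges of mean ± SD of neighbours in this order overlapped, while *Pcsk1* was above *Cplx2* in every Mll1+/- library. In the libraries labelled Mll1-/- the order was *Cplx2* at 4.64 ± 1.25, *Sct* at 3.98 ± 2.68, *Pcsk1* at 3.34 ± 1.38, *Tac1* at 0.323 ± 0.412, *Chgb* at 0.134 ± 0.122 and *Chga* at 0.0147 ± 0.0294 (SD, n = 4). The first 3 of these were not separated by more than their spread, although *Cplx2* was above *Pcsk1* in every library labelled Mll1-/-. *Scg5*, *Tph1*, *Pcsk1n* and *Cck* had at most 0.339 CPM per kilobase in either group.

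The other genes of the pathway were read from lists of named genes, to be set beside the 0.0851% of all genes called by edgeR and the 9.15% at an unadjusted p under 0.05. Of 8 granins and granule cargo genes, 3 were tested and 0 were called by edgeR, with 2 at an unadjusted p under 0.05, *Chga* and *Chgb*. DESeq2 and the newer quasi-likelihood method each called 1, *Chgb*, and limma-voom 0. *Nucb2*, the source of nesfatin, was the third and had 10.4 ± 4.62 CPM in the libraries labelled Mll1-/- and 8.29 ± 3.46 CPM in the others (SD, n = 4 each). Of 7 processing genes, 5 were tested, 0 were called by edgeR, DESeq2 or limma-voom, and 0 reached an unadjusted p under 0.05. The amidating enzyme *Pam* had 15.2 ± 4.23 and 15.9 ± 1.34 CPM (SD, n = 4 each). Of 20 exocytosis genes, 12 were tested, 8 higher and 4 lower, *Cplx2* was the 1 called by each of these tools, and 2 reached an unadjusted p under 0.05, *Cplx2* and the vesicle gene *Vamp2*, which is named here after its values were seen. *Rab3d*, a small GTPase of secretory granules, had 21.5 ± 5.41 and 16.2 ± 5.17 CPM (SD, n = 4 each). Of 8 genes of monoamine synthesis and storage, 7 were tested, 0 were called by edgeR, DESeq2 or limma-voom, and 2 reached an unadjusted p under 0.05, *Ddc* and *Maoa*. *Ddc*, which makes serotonin from the product of *Tph1*, did not overlap between genotypes at 77.4 ± 9.37 against 53.7 ± 9.69 CPM (log2 fold change 0.53, adjusted p = 0.404, edgeR).

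Of 16 gut peptide hormones, *Sct* and *Tac1* were the 2 tested, of which 0 were called by edgeR, DESeq2 or limma-voom and 0 reached an unadjusted p under 0.05. The 13 hormones besides *Sct*, *Tac1* and *Cck* summed to 3, 9, 2 and 20 counts in J_7075, J_7096, J_7135 and J_7136 and to 90, 26, 93 and 26 counts in J_7079, J_7100, J_7134 and J_7139. These did not overlap between genotypes, but the gap was narrow, with J_7136 at 1.31 CPM and J_7139 at 1.68 CPM. How often sums of 13 genes are separated in this way was not tested. Which hormones held these counts differed between mice. *Ghrl*, the ghrelin gene, had 51 counts in J_7079 and 57 in J_7134 and at most 5 elsewhere, and *Gip* had 26 counts in J_7134 and at most 4 elsewhere. Both were named after their values were seen.

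Of 21 enteroendocrine transcription factors, 11 were tested, 5 higher and 6 lower, and *Foxa1* was the 1 called, at 9.07 ± 2.97 against 36.0 ± 5.31 CPM (SD, n = 4 each, log2 fold change -1.99, adjusted p = 0.0918, edgeR). Foxa1 is a forkhead factor of the gut epithelium that is not restricted to enteroendocrine cells. The 5 higher were *Isl1*, *Rfx3*, *Mnx1*, *Sox4* and *Foxa2*. The other lower ones, *Neurog3*, *Neurod1*, *Insm1*, *Pax6* and *Rfx6*, had log2 fold changes of -1.51 to -1.19 and were not called (edgeR). The list median was -1.19. *Neurog3*, *Neurod1*, *Insm1*, *Pax4*, *Nkx2-2*, *Rfx6* and *Myt1* summed to 2.65 to 13.6 CPM in libraries labelled Mll1-/- and 0.160 to 71.0 CPM in the others, which overlapped. Most of these names were added after the values were seen. *Neurog3*, which starts the lineage, had 161 counts in J_7079, 32 in J_7100, 0 in J_7134 and 8 in J_7139, and in the libraries labelled Mll1-/- 40, 12, 0 and 32 counts, ordered as before. *Neurod1*, which acts after it, had 384, 104, 0 and 1 counts in these Mll1+/- libraries and 30, 113, 46 and 1 counts in the others. The pair, named after their values were seen, spanned libraries with none or few reads and libraries with many in each genotype. Thus J_7134 had *Chgb* at 4.89 CPM with 0 counts of *Neurog3* and *Neurod1*, while J_7096 had 113 counts of *Neurod1* and 2 counts of *Chgb*.

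**Figure D4:**
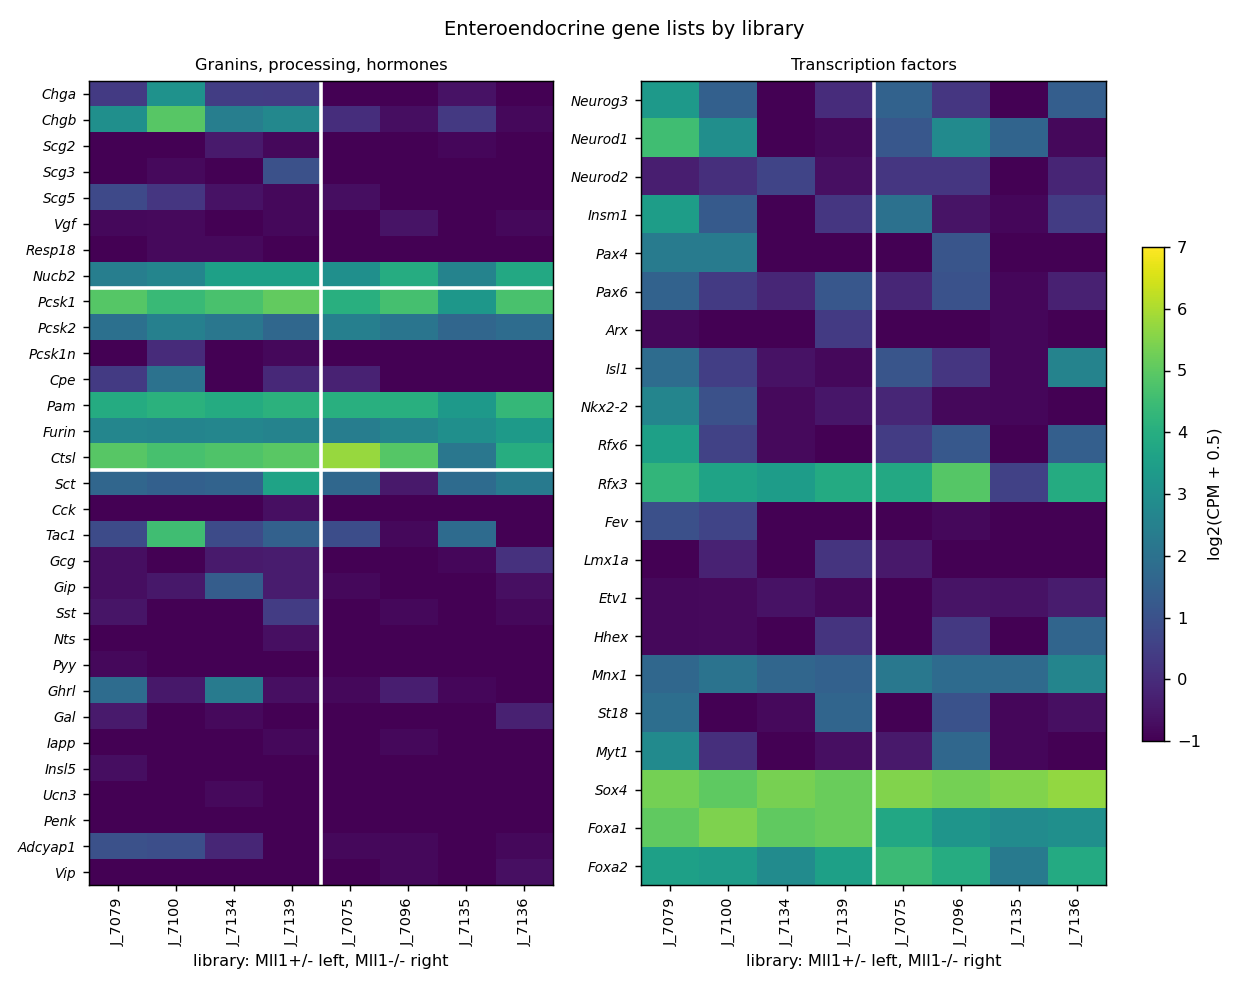
Level as log2(CPM + 0.5) (colour scale) of listed granins, processing genes and hormones (left panel, blocks separated by white lines) and of enteroendocrine transcription factors (right panel) in the 8 libraries (columns, Mll1+/- left of the white line). *Chgb* is bright in the 4 Mll1+/- libraries, *Foxa1* likewise, and *Neurog3* and *Neurod1* are brightest in J_7079.

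Across all 8 libraries, the pair with the highest Pearson r among the 7 genes with at least 100 counts was *Chga* and *Chgb* at 0.94, followed by *Chga* and *Tac1* at 0.87 and *Chgb* and *Tac1* at 0.81, in log2(CPM + 0.5). These values share J_7100 and are descriptions over 8 points. Each r over all 8 libraries, here and for the most similar genes below, also takes in any difference between genotypes. *Chga*, *Chgb* and *Cplx2* did not overlap between genotypes. *Pcsk1* had r between -0.31 and 0.30 with each of the other 6. Among the 4 Mll1+/- libraries alone it had r of -0.85 with *Chga*, -0.77 with *Chgb*, -0.95 with *Tph1* and 0.78 with *Sct*, over few points. Among all tested genes, the pattern most like *Chga* was that of the Paneth cell defensin *Defa3* (r = 0.96), and the patterns most like *Chgb* were those of *Apoa1* and *App* (r = 0.97 each). Reads of the near-identical defensin genes may be shared between them. The pattern most like *Cplx2* was *Bex1* (r = 0.98), at 89.2 against 29.1 mean CPM, and those most like the others were *Mbnl3* for *Pcsk1* (r = 0.98), *Lcn2* for *Tph1* (r = 0.94), *CT010453.2* for *Tac1* (r = 0.91) and *Adh6a* for *Sct* (r = 0.91), each over 8 libraries.

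Summed markers of some other cell types differed between the same groups, and their part in these results was not tested. The summed enterocyte markers were 285 to 297 CPM in the libraries labelled Mll1-/- and 340 to 428 CPM in the others, and the summed stem cell markers 11994 to 18497 and 24105 to 28743 CPM. Of the 6 enterocyte and 10 stem cell markers tested, 0 were called by edgeR, and 5 and 3 had an unadjusted p under 0.05. DESeq2, which called 2.74% of all genes, called 3 and 2. The enterocyte markers did not all go one way, with 1 higher and 5 lower. The higher one, *Vil1*, did not overlap between genotypes (log2 fold change 0.42, edgeR) and was among those with an unadjusted p under 0.05. The stem cell sum is mostly *Olfm4*, and single markers went either way, with 4 higher and 6 lower, such as *Axin2* at 226 ± 34.2 against 167 ± 14.5 CPM (SD, n = 4 each). Goblet cell markers summed to 699 to 1297 CPM and 615 to 813 CPM, and Paneth cell markers to 1559 to 5054 CPM and 3106 to 4846 CPM, which overlapped. Of the 10 goblet cell markers 8 were higher in the libraries labelled Mll1-/- and of the 8 Paneth cell markers 6 were lower. In either direction, 7 and 5 had an unadjusted p under 0.05, beside 9.15% of all genes. Among the 7 was *Zg16*, which was lower (log2 fold change -4.03, edgeR) and is named after its values were seen. Among the 5 was *Mmp7*, which was higher (log2 fold change 1.04, edgeR). DESeq2 called 6 goblet and 5 Paneth cell markers, *Mmp7* among the latter, and edgeR called 0 of each. Before the sort, cells were stained for EpCAM, which marks epithelium, for CD45, which marks leukocytes including mast cells, and for CD24. How these stains were gated is not described. Enteric neurons also make granins and *Cplx2*, and their markers *Uchl1* and *Gap43* had at most 2 counts in any library. Mast cells also make *Tph1*. Of 8 mast cell markers, *Kit* was the 1 tested, at 28.0 ± 7.05 against 10.2 ± 4.40 CPM (SD, n = 4 each) without overlap between genotypes (adjusted p = 0.239, edgeR) and called by DESeq2, while *Cpa3*, *Mcpt1* and *Tpsb2* had at most 9 counts in any library.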

How the data were processed

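Lgr5-GFP+ cells of 8 mice, 4 per genotype, were sequenced after full-length cDNA amplification with 16 PCR cycles. The authors deposited raw counts per gene, mapped to mm10 with GSNAP and counted without strand by featureCounts 1.6.3 according to the submitters' processing notes and the file header. The authors also deposited a signal table of counts divided by DESeq2 1.22.2 size factors, used here for gene symbols and membership only, whose fold change and p-value columns were not used. Exon lengths came from the deposited count table. Spike-in rows stayed out of library sizes and tests.

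Genes were filtered with filterByExpr (10 counts, 15 in total), scaled with TMM and fitted with the robust quasi-likelihood test of edgeR 4.0.16 in R 4.3.3, with genotype as the only term and Benjamini-Hochberg adjustment over 16445 genes at 0.1, after the study's false discovery rate. The common biological coefficient of variation was 0.435. SE was the log2 fold change over the root of F. Genes below the filter were compared by exact permutation of mean CPM over the 70 assignments. Alternatives were DESeq2 1.42.0, limma-voom (limma 3.58.1), other scalings and filters, the run of libraries or *Xist* minus Y-linked genes as a term, and each library left out. The newer quasi-likelihood method was added after seeing the data. Fits were tested on simulated data. The 10 genes and all lists were chosen with earlier results of these data known. Named genes were the 10, *Kmt2a*, for each list its called genes, its non-overlapping genes and its 3 highest tested genes, and for each of the 10 with at least 100 counts the 3 genes with the highest correlation. Not every gene under this rule is printed, and those outside it are said to be so. One result under this rule is not reported here.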

Additional observations from a re-analysis of the deposited data

Results flagged for a closer look

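Of 18 groups of 4 libraries with differing values, 8 held a value that lay apart from the other 3 by Dixon's ratio of gap to range. The chance rate of about 1 in 20 for this ratio assumes normally distributed values. It does not hold for low counts, so the 8 are not compared with it. 4 of the 8 were in J_7100, which held 8.02 CPM of *Chga*, 29.7 CPM of *Chgb*, 0.492 CPM of *Pcsk1n* and 23.1 CPM of *Tac1*. J_7139 held 12.01 CPM of *Sct* and 0.129 CPM of *Cck*, the latter from 2 counts where the other Mll1+/- libraries had 0. In the libraries labelled Mll1-/-, J_7135 held 0.162 CPM of *Chga* and J_7075 held 0.118 CPM of *Scg5*, where the other 3 libraries had 0 counts, so that these rest on 3 and 2 counts.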

How the results depend on the processing

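The number of genes past the threshold, 14 in edgeR with 1 of the 10 genes among them, was 14 with DESeq2 size factors (1 of the 10), 8 with upper-quartile scaling (0 of the 10), 47 with a filter of 1 count in any library (2), 34 with 10 counts in every library (1), 406 with the DESeq2 Wald test (2), 103 with limma-voom (1), 0 with the run of libraries (0) or *Xist* minus Y-linked genes (0) as a term, and 40 with the newer quasi-likelihood method (2). Leaving out 1 library gave 0 to 45 genes and 0 to 2 of the 10, with 45 and 2 without J_7135, 2 and 0 without J_7075, and 0 and 0 without any other library. The median log2 fold change of the tested genes turned to 0.56 with 10 counts in every library, since *Pcsk1* and *Cplx2* alone remained. With 1 library left out, the log2 fold change of *Sct* ran from -1.30 to 0.072, turning sign without J_7139, and the difference of *Tph1* from -1.88 to 0.0464 CPM, turning sign without J_7100. The signs of *Chga*, *Chgb*, *Tac1*, *Pcsk1* and *Cplx2* held in every fit that included them. DESeq2 gave no adjusted p for *Chga* and *Tac1*. No paired analysis was possible because the labels give the mice no shared replicate numbers. Genes with few counts in both genotypes, such as *Cck* and *Pcsk1n*, are limited by depth.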
